A study of Mus musculus with 45 samples.

Results

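The Hox genes of the Hoxa, Hoxb, Hoxc and Hoxd clusters were followed across 45 expression arrays of a mouse glioblastoma model. A gene was a member when a probe set mapped to it alone and its symbol was Hoxa, Hoxb, Hoxc or Hoxd plus a number. That gave 34 genes on 42 probe sets, among 17097 genes on the array. Hoxa had 9 genes, Hoxb 10, Hoxc 6 and Hoxd 9, on chromosomes 6, 11, 15 and 2. Where a gene had several probe sets, the one with the highest mean over the 45 arrays stood for it. Hoxa6, Hoxc6, Hoxc11 and Hoxc12 were not analysed here.

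Each array held total RNA labelled as mouse brain, from CD-1 nude animals carrying tumours of a p53-null glioblastoma model. Every group therefore shares the p53null background. Per the series description, retroviruses carried wild-type or mutant PDGFRα into p53-null primary astrocytes, so the driver is a retroviral transgene in cultured cells. The groups with a mutant receptor were Pdgfra D842V (5 arrays), Pdgfra V544ins (9), Pdgfra C450 ins (5), Pdgfra E7 del (3), Pdgfra E10 del (5) and Pdgfra E10 del.v2 (9). Pdgfra WT had 1 array, and EGFRvIII, a truncated EGF receptor used here as the other driver, had 8. The labels give no age, and nothing in them says that replicates came from separate animals, so p-values measure only the spread between these arrays. Replicate numbers follow accession order and pair nothing.

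Hox genes encode homeodomain transcription factors that give cells their position along the head-to-tail axis of the embryo. Within a cluster, the genes at the low-numbered end are switched on further forward, in the hindbrain, and the high-numbered genes further back, in the trunk and tail. Forebrain and midbrain develop in front of the Hox domains. Hox proteins bind DNA with PBX and MEIS partners, retinoic acid switches on the low-numbered genes, and Polycomb complexes keep the clusters silent where they are not used.

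The values are log2 signals from RMA, for which the table has a median of 4.79, and a gene is called above the median in an array when its signal passes that level. This level is a reference line, not a detection test. The signals of different probe sets are not on a common scale, so levels are not ranked between genes. The values came from bulk tissue, where fewer cells of a type and less RNA per cell cannot be told apart.

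Some arrays stand apart by the markers of the tissue. EGFRvIII replicates 4, 5 and 6 had an oligodendrocyte progenitor list signal of 7.58, 6.40 and 8.62, against 9.79 to 11.23 in the other EGFRvIII arrays. The same list read 7.27 in Pdgfra E10 del.v2 replicate 2 and 7.73 to 7.99 in the first 3 replicates of Pdgfra E10 del, and the neuron list read 10.52 to 11.72 in these 4 arrays. The astrocyte list, the labelled cell of origin, ran from 6.90 to 9.98 over all arrays. None of these 7 arrays had a Hox gene above the median.

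Promoter windows of 3 Hoxa genes are shown because their signals stood highest over their own medians in some arrays or because the gene spans its neighbours. The windows run from 250 bases before to 50 after the gene start, on the minus strand, from RefSeq, build GRCm38.p6. Hoxa2 lies at chr6:52164782-52165081, Hoxa5 at chr6:52204538-52204837 and Hoxa3 at chr6:52213018-52213317. Capitals mark matches on either strand to the PBX-Hox motif TGATNNAT or the retinoid half-site AGGTCA.
Hoxa2: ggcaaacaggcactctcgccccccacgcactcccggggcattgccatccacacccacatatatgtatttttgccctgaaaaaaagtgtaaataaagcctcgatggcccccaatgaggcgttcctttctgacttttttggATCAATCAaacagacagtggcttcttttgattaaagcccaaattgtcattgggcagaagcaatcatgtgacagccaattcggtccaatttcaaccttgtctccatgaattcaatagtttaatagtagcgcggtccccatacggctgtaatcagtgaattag
Hoxa5: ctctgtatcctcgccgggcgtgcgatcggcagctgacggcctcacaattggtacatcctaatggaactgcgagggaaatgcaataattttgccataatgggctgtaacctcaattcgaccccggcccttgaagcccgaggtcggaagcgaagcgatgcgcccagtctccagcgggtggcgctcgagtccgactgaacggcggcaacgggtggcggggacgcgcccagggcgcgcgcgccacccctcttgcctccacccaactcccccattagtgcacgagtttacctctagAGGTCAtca
Hoxa3: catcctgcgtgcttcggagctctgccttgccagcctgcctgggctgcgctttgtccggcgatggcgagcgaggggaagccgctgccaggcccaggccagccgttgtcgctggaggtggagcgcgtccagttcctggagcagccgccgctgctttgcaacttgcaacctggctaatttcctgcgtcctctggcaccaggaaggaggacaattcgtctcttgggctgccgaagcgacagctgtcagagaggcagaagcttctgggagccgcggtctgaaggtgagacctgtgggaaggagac
The Hoxa2 window held 1 PBX-Hox match, 111 bases before the start, and 4 CCAAT boxes. The Hoxa5 window held 1 retinoid half-site, 41 bases after the start, and 1 CCAAT box. The Hoxa3 window held neither motif, no CCAAT, and no TATAAA or GGGCGG. Over all 32851 windows of this length, 8.85% held TGATNNAT, 16.3% AGGTCA, 37.4% CCAAT, 13.6% TATAAA and 35.7% GGGCGG, each searched on both strands. The windows' GC contents were 45.7% for Hoxa2, 61.7% for Hoxa5 and 64% for Hoxa3, with 9, 29 and 20 CpG, against medians of 52.7% and 7 over all windows. Windows were given for 21 members, 23 in all. Among those 23 windows, 4 held TGATNNAT, 7 AGGTCA, 14 CCAAT, 4 TATAAA and 9 GGGCGG. A match is a description of the letters and not a bound site.

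Most of the Hox genes stayed below the median in every array, and only Hoxa genes crossed it. At least 1 array passed the median for 4 of 34 Hox genes (11.8%), Hoxa2, Hoxa3, Hoxa4 and Hoxa5, against 12389 of all 17097 genes (72.5%). With at least 3 arrays required, 2 Hox genes passed (5.88%), Hoxa2 and Hoxa5, against 11809 of all genes (69.1%). Of single array values, 18 of 405 in Hoxa were above the median, with 0 of 450 in Hoxb, 0 of 270 in Hoxc and 0 of 405 in Hoxd. The highest signals were 7.78 in Hoxa, 4.20 in Hoxb, 3.87 in Hoxc and 3.76 in Hoxd. The other 30 genes ran from 2.12 to 4.35 over all arrays. Their median SD over arrays was 0.16, and the 4708 genes of the whole table that were below the median in every array also had a median SD of 0.16. The highest array lay at most 1.41 above the gene's own median in these 30 genes, in Hoxa7.

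By cluster mean, the 9 Hoxa genes averaged 3.02 ± 0.07 in Pdgfra D842V, 3.29 ± 0.18 in Pdgfra V544ins, 3.40 ± 0.49 in Pdgfra C450 ins and 3.67 ± 0.33 in Pdgfra E7 del (SD over arrays). The mean was 3.26 ± 0.17 in Pdgfra E10 del, 3.34 ± 0.21 in Pdgfra E10 del.v2, 4.10 in the Pdgfra WT array and 3.42 ± 0.35 in EGFRvIII. Over single arrays the Hoxa mean ran from 2.91 to 4.26. The Hoxb mean ran only from 2.78 to 3.09, the Hoxc mean from 3.01 to 3.36 and the Hoxd mean from 2.77 to 3.06. Among the quiet members, Hoxb4 reached 4.20 in EGFRvIII replicate 5 from a median of 3.22, and Hoxa13, which patterns the tail end and the digits, reached 4.05 in V544ins replicate 7 from a median of 3.09. Hoxa10, Hoxb1, Hoxb5, Hoxb7, Hoxb9, Hoxb13, Hoxc8, Hoxd1, Hoxd12 and Hoxd13 did not exceed their medians by more than 0.34 in any array.

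**Figure D1:**
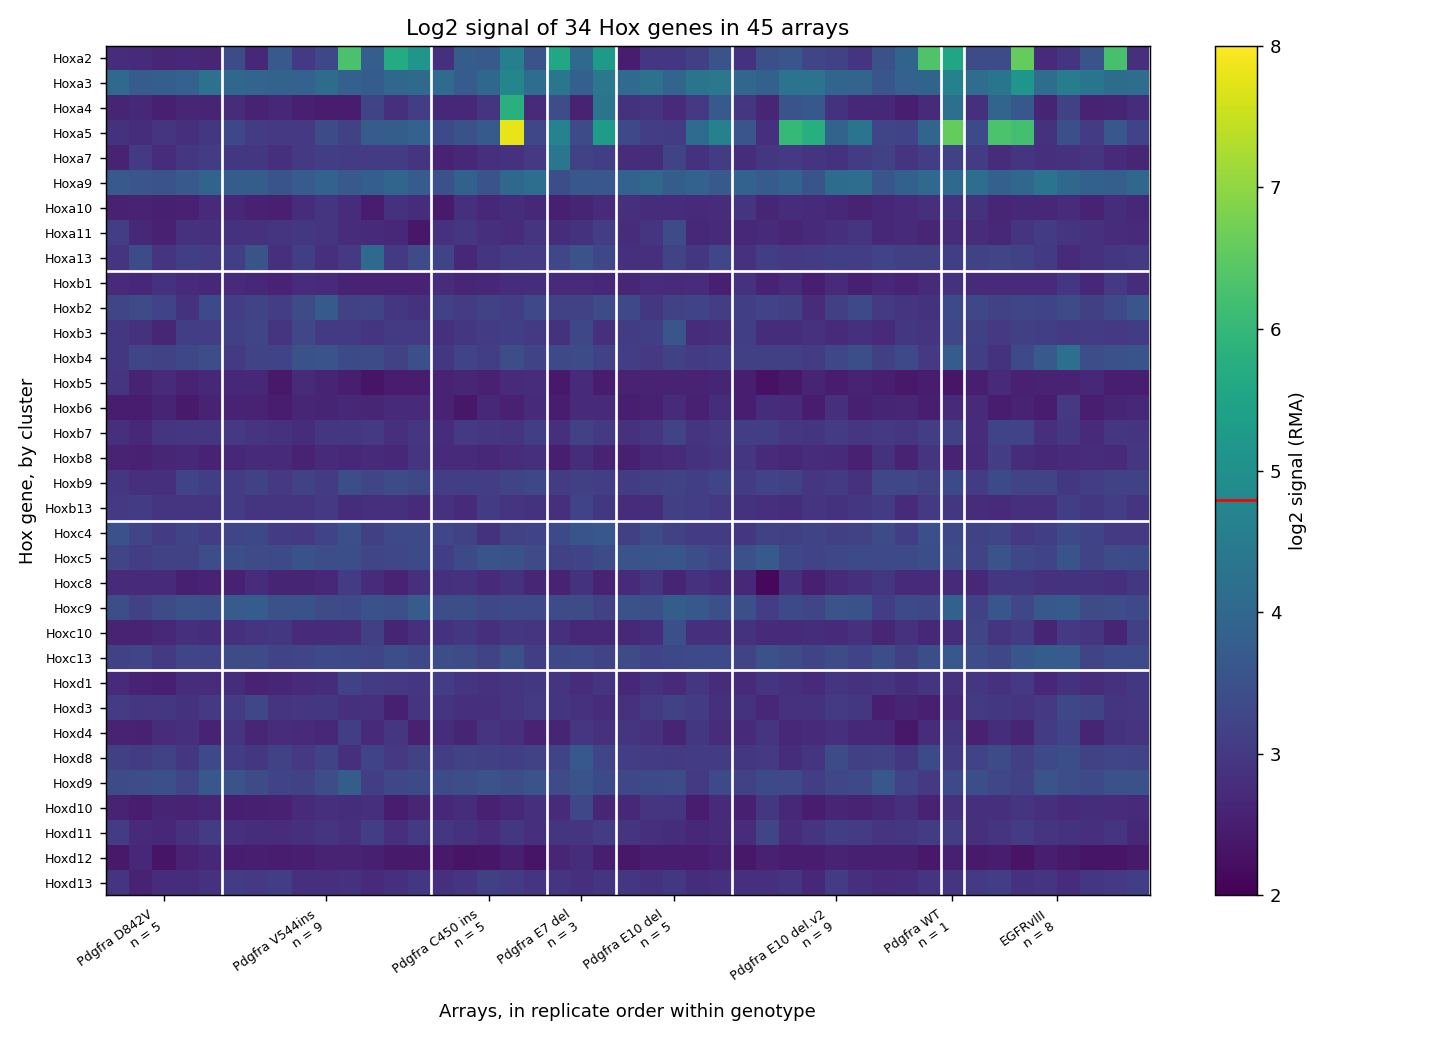
Log2 signal of the 34 Hox genes (rows, by cluster) in 45 arrays (columns, by genotype); the red line on the colour bar is the table median of 4.79. The brightest cells lie in the Hoxa2, Hoxa4 and Hoxa5 rows, scattered over single arrays of several genotypes.

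**Figure D2:**
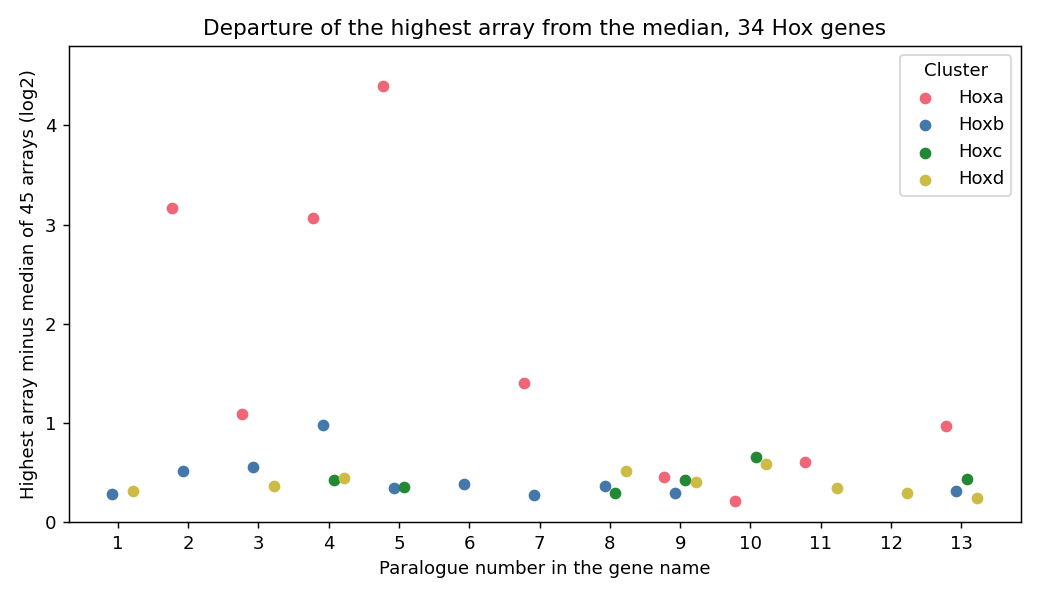
Highest array minus the median of 45 arrays (log2) for each Hox gene, on its probe set of highest mean, by the number in its name and by cluster. Hoxa5 (4.39), Hoxa2 (3.17) and Hoxa4 (3.06) stand above the other genes on these probe sets (a second Hoxa3 probe set, not plotted, reaches 3.56), and the Hoxb, Hoxc and Hoxd genes reach at most 0.98.

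Hoxa2, which patterns the hindbrain and the second branchial arch, was above the median in 9 of 45 arrays of 5 genotypes. Pdgfra D842V arrays had Hoxa2 signals of 2.77, 2.72, 2.65, 2.67 and 2.66. Pdgfra C450 ins arrays had 2.80, 3.76, 3.70, 4.58 and 3.53, and Pdgfra E10 del arrays 2.46, 2.94, 2.98, 3.13 and 3.53. No array of these 3 genotypes passed the median. In Pdgfra E7 del, Hoxa2 read 5.59, 4.04 and 5.28. In Pdgfra V544ins the lowest was 2.69, the median 3.68 and the highest 6.27, and in Pdgfra E10 del.v2 they were 2.88, 3.47 and 6.34. The arrays above the median were replicates 6, 8 and 9 of V544ins (6.27, 5.69 and 5.14), replicate 9 of E10 del.v2, and replicates 1 and 3 of E7 del. The Pdgfra WT array read 5.52. EGFRvIII arrays ran from 2.73 through a median of 3.39 to 6.57, with replicates 3 (6.57) and 7 (6.24) above the median. Each of these genotypes with several arrays also had arrays below the median, and the groups overlap.

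Hoxa5, which patterns the neck and upper trunk skeleton and the lung, was above the median in 7 arrays of 5 genotypes. Pdgfra D842V arrays had Hoxa5 signals of 2.88, 2.78, 2.92, 2.81 and 2.98, and this genotype had the lowest mean. Pdgfra C450 ins arrays had 3.36, 3.50, 3.71, 7.78 and 3.28, so that replicate 4 stood alone above the others. Pdgfra E10 del arrays had 3.33, 3.10, 3.07, 4.10 and 4.65, and Pdgfra E7 del arrays 4.66, 3.38 and 5.30. Replicates 1 to 3 of E10 del, the lower ones in Hoxa5, had an oligodendrocyte progenitor list signal of 7.73 to 7.99, against 10.68 in replicate 4 and 10.81 in replicate 5, and its part was not tested. In Pdgfra V544ins the lowest, median and highest were 2.99, 3.31 and 3.88, with no array above the median. In Pdgfra E10 del.v2 they were 2.80, 3.90 and 6.01, with replicates 3 (6.01) and 4 (5.75) above it. The Pdgfra WT array read 6.59. EGFRvIII arrays ran from 2.87 through 3.41 to 6.31, with replicates 2 (6.31) and 3 (6.21) above the median. Hoxa5 was thus high in single arrays of C450 ins, E10 del.v2, E7 del, WT and EGFRvIII, and each of these genotypes with several arrays also had arrays below the median.

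Hoxa2 and Hoxa5 were above the median together in 3 arrays, EGFRvIII replicate 3, Pdgfra E7 del replicate 3 and Pdgfra WT. Those are 33.3% of the 9 Hoxa2 arrays and 42.9% of the 7 Hoxa5 arrays. Hoxa2 alone passed in 6 arrays and Hoxa5 alone in 4, and neither passed in 32. By array, 13 of 45 had at least 1 Hox gene above the median, of which 9 had 1 gene, 3 had 2 and 1 had 3. None of the 5 Pdgfra D842V or 5 Pdgfra E10 del arrays did. Of the other groups, 3 of 9 Pdgfra V544ins, 1 of 5 Pdgfra C450 ins, 2 of 3 Pdgfra E7 del, 3 of 9 Pdgfra E10 del.v2, the 1 Pdgfra WT and 3 of 8 EGFRvIII arrays did.

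Hoxa4, a neighbour of Hoxa5 that patterns the neck, passed the median in 1 array, Pdgfra C450 ins replicate 4, at 5.80. The other C450 ins arrays read 2.70, 2.69, 2.93 and 2.71. Pdgfra D842V arrays had Hoxa4 signals of 2.62, 2.70, 2.53, 2.65 and 2.62, and Pdgfra E10 del arrays 2.87, 2.91, 2.72, 3.0 and 3.67. Pdgfra E7 del arrays read 3.43, 2.58 and 4.32. Pdgfra WT read 4.22. In EGFRvIII the lowest, median and highest were 2.59, 2.82 and 3.96. In the arrays where Hoxa5 was above the median, Hoxa4 read 5.80 in C450 ins replicate 4, 4.32 in E7 del replicate 3, 4.22 in WT, 3.53 in E10 del.v2 replicate 3 and 3.64 in replicate 4, 3.96 in EGFRvIII replicate 2 and 3.63 in replicate 3. Each of these was above the Hoxa4 median of 2.74 over all arrays. Of the 6 arrays with Hoxa2 but not Hoxa5 above the median, Hoxa4 read 3.43 in E7 del replicate 1 and between 2.49 and 3.08 in V544ins replicates 6, 8 and 9, E10 del.v2 replicate 9 and EGFRvIII replicate 7.

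Hoxa3, which is needed for the thymus and parathyroid, had 4 probe sets that differed in level and in range. The probe set with the highest mean ran from 3.61 to 5.16, with a median of 4.06, and passed the table median in 1 array, EGFRvIII replicate 3. A second probe set ran from 2.38 to 6.57, with a median of 3.01. On that probe set 3 arrays passed the table median, Pdgfra C450 ins replicate 4 (6.57), Pdgfra WT (6.24) and EGFRvIII replicate 2 (5.48). In these 3 arrays, in the same order, the probe set of highest mean read 4.74, 4.63 and 4.33. A further probe set, with a median of 3.03, had its highest signals in the same 3 arrays, at 4.12, 4.10 and 3.54. It stayed below the table median in every array. The last probe set reached at most 3.24. In the RefSeq annotation Hoxa3 spans Hoxa4, Hoxa5 and Hoxa6 as well as the noncoding genes Hoxaas2 and Hoxaas3, and which transcript each probe set reads was not tested. In the Hoxa5-high arrays the second probe set read 6.57, 4.13 and 6.24 in C450 ins replicate 4, E7 del replicate 3 and WT, 4.32 in E10 del.v2 replicate 3 and 4.20 in replicate 4, 5.48 in EGFRvIII replicate 2 and 4.64 in replicate 3. Hoxaas2, a noncoding gene beside Hoxa2, passed the median in 1 array, C450 ins replicate 4 (4.89). It read 4.68 in WT.

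**Figure D3:**
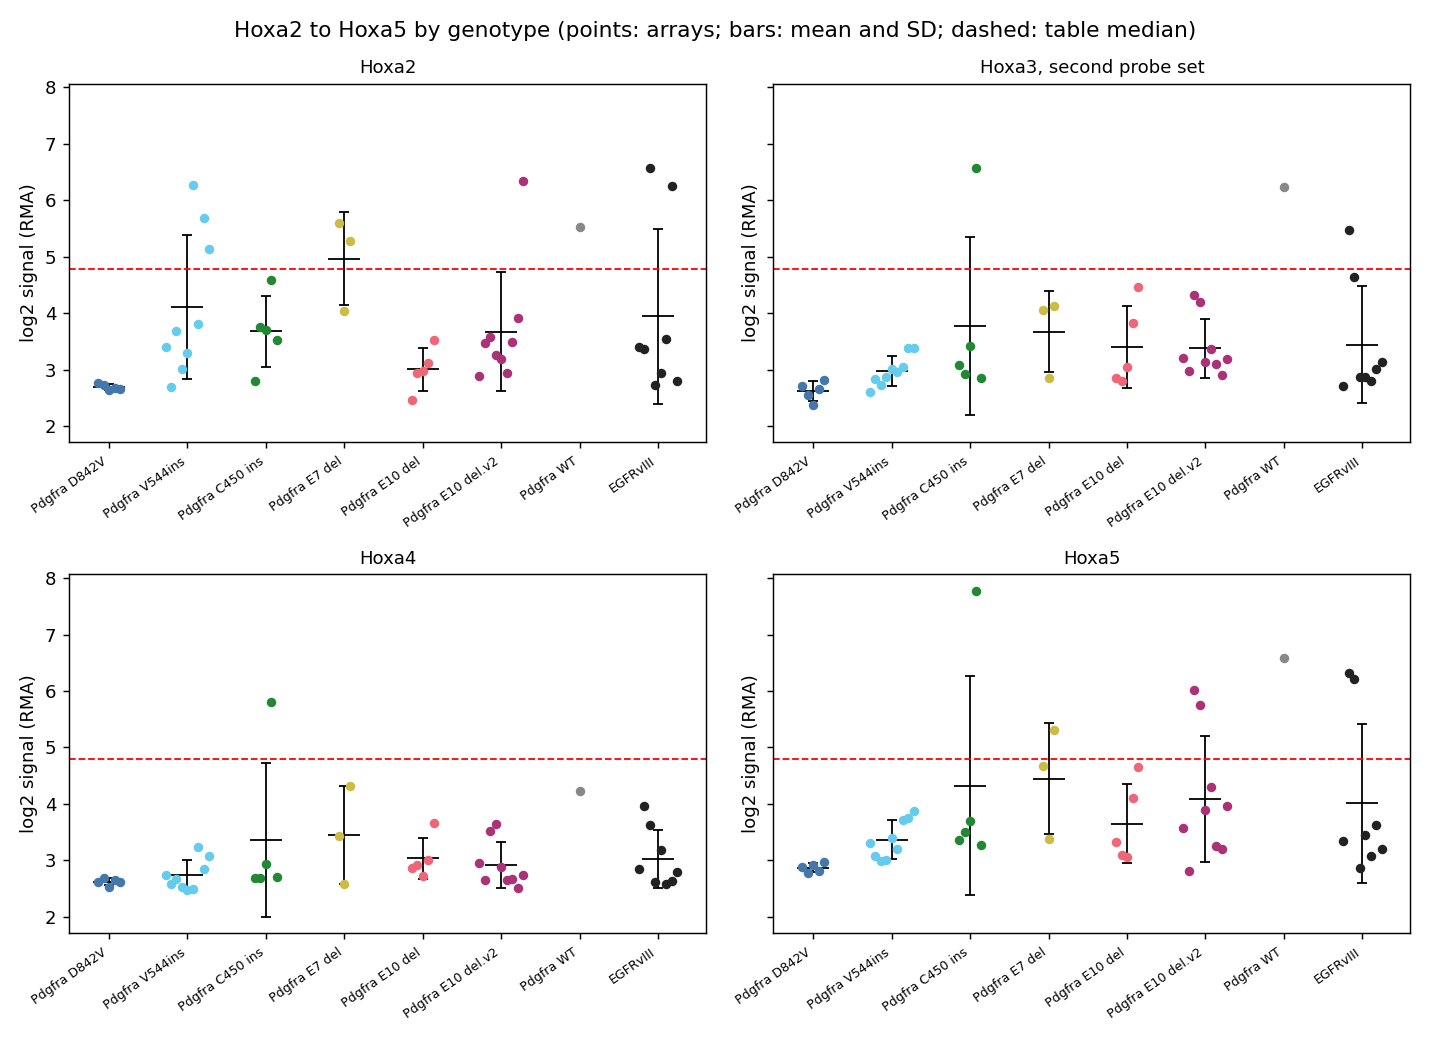
Log2 signal of Hoxa2, the second probe set of Hoxa3, Hoxa4 and Hoxa5 in each array by genotype (points), with mean and SD (bars); the dashed line is the table median of 4.79. Pdgfra D842V has the lowest mean Hoxa2 and Hoxa5 signals, and the high arrays are single members of several groups.

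**Figure D4:**
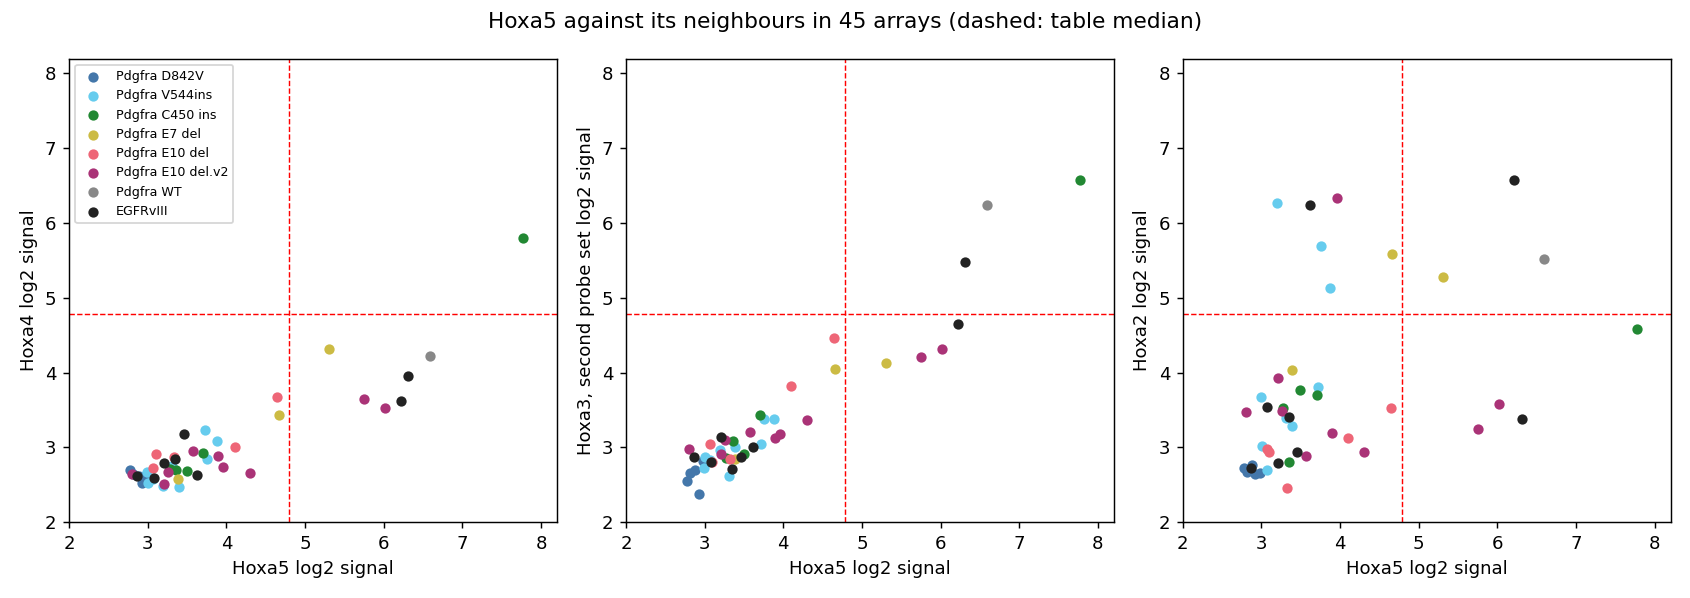
Hoxa5 log2 signal (x) against Hoxa4, the second probe set of Hoxa3 and Hoxa2 (y) in the 45 arrays, coloured by genotype; dashed lines mark the table median. Arrays high in Hoxa5 also lie above most others in Hoxa4 and Hoxa3, whereas high Hoxa2 occurs at low and at high Hoxa5.

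The 6 mutants were set against EGFRvIII in a limma fit on all 17097 genes. It called 2 of 34 Hox genes at an adjusted p under 0.05, both lower, against 7.85% of all genes called (2.44% higher, 5.40% lower). With an unadjusted p under 0.05, 12 of the 34 (35.3%) passed, against 26% of all genes. Hoxa9, a trunk gene also known from blood progenitors, averaged 3.76 in the mutants and 4.0 in EGFRvIII, a difference of -0.24 ± 0.07 (SE) with adjusted p = 0.0338 by limma. Hoxa9 ran from 3.44 to 4.16 in the mutant arrays and from 3.82 to 4.30 in EGFRvIII, so the groups overlap. Hoxc13, known for its role in hair and nail, averaged 3.29 in the mutants and 3.46 in EGFRvIII, a difference of -0.17 ± 0.05 with adjusted p = 0.0491. Its arrays lay between 3.03 and 3.49 in the mutants and 3.22 and 3.76 in EGFRvIII. Both genes were below the table median in every array. Without EGFRvIII replicates 4, 5 and 6, the arrays that stand apart by their low oligodendrocyte progenitor marker signal, neither was called. The Hoxa9 difference was then -0.21 (adjusted p = 0.343) and the Hoxc13 difference was -0.10 (adjusted p = 0.530). The Hoxc13 call was lost in 7 of 9 alternatives and in 30 of 44 fits that left out 1 array, and the Hoxa9 call in 4 of 9 and 2 of 44. In the same comparison 2 of 10 fibroblast and mesenchyme markers were called, both lower. Twist1 averaged 3.65 in the mutants and 5.86 in EGFRvIII (-2.22 ± 0.37, adjusted p = 0.000445), and Prrx1 averaged 7.95 in the mutants and 9.32 in EGFRvIII (-1.37 ± 0.41, adjusted p = 0.0332). That list's mean ran from 3.83 to 8.03 in the mutant arrays and from 4.96 to 6.38 in EGFRvIII, and its part in the Hox differences was not tested. The genes with high single arrays were not called. Hoxa2 averaged 3.69 in the mutants and 3.95 in EGFRvIII (difference -0.26 ± 0.41, adjusted p = 0.719; with the title range as a block it was 0.38, and in titles 41 to 64 alone 0.53) and Hoxa5 averaged 3.79 in the mutants and 4.01 in EGFRvIII (-0.22 ± 0.42, adjusted p = 0.769). Hoxa3, on its probe set of highest mean, differed by -0.30 ± 0.10 with adjusted p = 0.0553. It was called in 1 of 9 alternatives and in 6 of 44 fits that left out 1 array. The median difference of the Hox genes was -0.06, against -0.03 over all genes.

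Among the 6 mutants, limma's F test called 0 Hox genes, against 0.567% of all genes, and 6 had an unadjusted p under 0.05 (18.3% of all genes). The smallest adjusted p was 0.0825, for Hoxa7. Hoxa2 had F = 2.54 with an adjusted p of 0.263. Pdgfra D842V against the other 5 mutants gave 0 calls by limma, against 0.620% of all genes, and 7 Hox genes at an unadjusted p under 0.05 (12.5% of all genes). Hoxa2 averaged 2.69 in D842V and 3.89 in the other 5 (difference -1.19 ± 0.51, adjusted p = 0.302), and Hoxa5 averaged 2.87 in D842V and 3.98 in the other 5 (-1.10 ± 0.52, adjusted p = 0.362). The D842V arrays were the lowest on average in both genes, but these differences did not pass the test. Over 11 alternatives the Hoxa2 difference ran from -1.26 to -0.58, and it was called in none. The choroid plexus and ependyma marker list also averaged highest in D842V, at 6.02 ± 0.77 (SD, n = 5), and its part in the Hoxa values was not tested.

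Pdgfra E7 del against the other 5 mutants gave 1 call, Hoxa7, higher, against 0.468% of all genes (0.234% higher). Hoxa7, a trunk gene, read 4.35, 3.15 and 3.11 in E7 del and from 2.58 to 3.23 in the other mutants. It averaged 3.54 in E7 del and 2.92 in the other 5, a difference of 0.62 ± 0.13 with adjusted p = 0.0196 by limma. The call rests on replicate 1, since without it the difference was 0.21 with adjusted p = 0.293. In the same comparison 3 of 9 myelinating oligodendrocyte markers were called, all lower, with differences of -2.41 for Mbp (adjusted p = 0.0223), -2.69 for Mog (adjusted p = 0.0391) and -2.91 for Mal (adjusted p = 0.0453). In E7 del replicates 1, 2 and 3 that list read 8.58, 5.39 and 7.60, and the neuron list 9.45, 5.40 and 4.54. The part of either list in the Hoxa7 difference was not tested. Hoxa2 averaged 4.97 in E7 del and 3.43 in the other 5 (1.54 ± 0.63, adjusted p = 0.212) and Hoxa5 averaged 4.45 in E7 del and 3.66 in the other 5 (0.79 ± 0.64, adjusted p = 0.532). Over 11 alternatives the Hoxa2 difference ran from 0.73 to 1.59, and it was called in none. In the reported fit of E7 del against the other 5, a total of 8 Hox genes had an unadjusted p under 0.05 (16.8% of all genes). Of the quiet members, Hoxc4 averaged 3.50 in E7 del and 3.19 in the other 5 (0.31 ± 0.09, adjusted p = 0.0878), and Hoxd8 averaged 3.37 in E7 del and 3.10 in the other 5 (0.28 ± 0.09, adjusted p = 0.132). For Pdgfra V544ins, Pdgfra C450 ins, Pdgfra E10 del and Pdgfra E10 del.v2, limma called 0 Hox genes. The share of all genes called was 0% for V544ins, C450 ins and E10 del.v2 and 0.749% for E10 del. The Hox genes with an unadjusted p under 0.05 numbered 1 for V544ins (4.75% of all genes), 3 for C450 ins (4.84%), 2 for E10 del (23.7%) and 4 for E10 del.v2 (6.73%). Hoxa5 in C450 ins averaged 4.32 against 3.69 in the other 5 (0.64 ± 0.52, adjusted p = 0.999), where replicate 4 was the 1 array above the median.

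Sample titles carry numbers in 2 ranges, 41 to 64 and 1 to 30, whose meaning the labels do not give. All 9 Hoxa2-high arrays had titles in 41 to 64. Of the Hoxa5-high arrays, C450 ins replicate 4 and E10 del.v2 replicate 3 lay in 1 to 30 and the other 5 in 41 to 64. Within V544ins and E10 del.v2, the genotypes that span both ranges, Hoxa2 averaged 4.24 in titles 41 to 64 and 3.19 in titles 1 to 30, a difference of 1.05 ± 0.51 with adjusted p = 0.240 by limma. The differences were 1.28 in V544ins and 0.81 in E10 del.v2, and they were not shown to differ (interaction 0.47, adjusted p = 0.836). In this comparison 0 Hox genes were called, against 0.0175% of all genes, and 5 had an unadjusted p under 0.05 (21.9% of all genes). For EGFRvIII, E7 del and WT every array lies in 41 to 64, and for D842V, C450 ins and E10 del every array lies in 1 to 30, so range and genotype cannot be told apart there.

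Partners and regulators of the Hox genes were read from lists, and their counts above the table median in every array stand beside 47.1% of all genes (8059 of 17097). Of 8 measured Hox cofactors, 0 were called in any comparison, where the share of all genes called ran from 0% to 7.85%. Of these 8, 5 were above the median in all arrays and 1, Pbx4, in none. Their mean signal was 5.96 to 7.22. Of 18 genes on the Polycomb list, 15 were above the median in all arrays. Among these 15 was the histone demethylase Kdm6a, which is not a Polycomb protein. On that list 1 gene was called, against 7.85% of all genes in that comparison. It was Eed, a core subunit of Polycomb complex PRC2, which averaged 8.43 in the mutants and 8.83 in EGFRvIII (-0.40 ± 0.12, adjusted p = 0.0310). All 11 Trithorax genes were above the median in all arrays. Of them Rbbp5, a subunit of the histone methyltransferase complexes, was higher in the mutants, at 8.64 against 8.36 in EGFRvIII (0.28 ± 0.09, adjusted p = 0.0349). That was 1 call among the 11, against 7.85% of all genes. Of 15 retinoic acid genes, Aldh1a3, an enzyme that makes retinoic acid, was higher in Pdgfra D842V, at 6.58 against 4.21 in the other 5 mutants (2.37 ± 0.50, adjusted p = 0.0164), a call lost without D842V replicate 2, 3 or 5. In that comparison 1 of the 15 was called, against 0.62% of all genes. Of 6 genes upstream of Hox, Egr2, which regulates Hoxa2 and Hoxb2 in the mouse hindbrain, was higher in D842V. It averaged 8.14 in D842V and 5.87 in the other 5 mutants (2.28 ± 0.41, adjusted p = 0.00336). That was 1 call among the 6, against 0.62% of all genes. Egr2 was above the median in 41 arrays of several genotypes, whereas 4 of the 6 genes were above it in none. Whether the Egr2 signal has a part in the Hox values was not tested. Without EGFRvIII replicates 4, 5 and 6, neither Eed nor Rbbp5 was called, with a difference of -0.30 for Eed (adjusted p = 0.442) and 0.05 for Rbbp5 (adjusted p = 0.867).

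The hindbrain and spinal cord marker list had 13 genes, of which 10 were below the median in all 45 arrays. Its mean signal ran from 2.99 to 3.64, with the highest in Pdgfra D842V replicate 1. In Pdgfra C450 ins replicate 4 it was 3.12, in Pdgfra WT 3.16 and in EGFRvIII replicate 3 3.26. Tph2, a serotonin synthesis enzyme of the hindbrain, was above the median in 7 arrays, with its highest signal, 5.93, in EGFRvIII replicate 3. It read 5.60 in EGFRvIII replicate 7 and 5.56 in V544ins replicate 6, arrays with high Hoxa2, but also 5.08 in EGFRvIII replicate 8 and 5.07, 4.94 and 5.17 in D842V replicates 1, 3 and 5, where Hoxa2 was low. Isl1 passed in 10 arrays, with its highest signal, 8.11, in E10 del replicate 3. That array also had the highest signals of Dlx5 (7.43), from the forebrain list, and Gad1 (12.69), from the neuron list. Its pituitary list mean was 6.66, against a median of 3.30 over all arrays. The Isl1 signal there can therefore not be assigned to hindbrain or spinal cord cells. Gata3 passed in 1, D842V replicate 1 (5.53). Neither E10 del replicate 3 nor D842V replicate 1 had a Hox gene above the median. Of 13 listed genes, 0 were called in any comparison, where the share of all genes called ran from 0% to 7.85%. The part played by hindbrain or spinal cord cells in the Hoxa signals was not tested. The 8 cerebellum genes and 5 Hox noncoding genes also had 0 called in the same comparisons. Of 11 forebrain genes, Otx1 was lower in the mutants (3.45 against 4.35 in EGFRvIII, -0.90 ± 0.27, adjusted p = 0.0365), but the difference was 0.05 without EGFRvIII replicates 4, 5 and 6. It was the 1 call among the 11 in that comparison, against 7.85% of all genes.

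Of 18 measured genes flanking the clusters, 13 were above the median in every array and 5, Calcoco2, Evx1, Evx2, Skap1 and Ttll6, in none. Skap2 and Hibadh, on either side of Hoxa, Snx11 beside Hoxb, Smug1 beside Hoxc, and Mtx2 and Lnpk beside Hoxd were among the 13. Of the 18, Smug1 was called lower in the mutants (6.67 against 7.17 in EGFRvIII, -0.50 ± 0.13, adjusted p = 0.0146), and Skap2 averaged 8.52 in the mutants and 9.25 in EGFRvIII without passing (-0.73 ± 0.29, adjusted p = 0.105). The 1 call among the 18 stands beside 7.85% of all genes called in that comparison. Without EGFRvIII replicates 4, 5 and 6, the Smug1 difference was -0.43 and was not called (adjusted p = 0.253).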

How the data were processed

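RNA of 45 arrays was measured with Affymetrix 3′ IVT labelling of 100 ng total RNA, per the labels. The authors made the deposited log2 signals with RMA, per the submitters' processing notes, and no version was given. The table of 45141 probe sets was used as deposited; values ran from 1.46 to 13.82, array medians from 4.66 to 4.85. Of the probe sets, 28898 had 1 gene symbol, 551 several and 15692 none. The probe set of highest mean stood for each of 17097 genes.

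The 8 group means came from limma (version 3.58.1, lmFit and eBayes; R 4.3.3), with no covariate and no filter, and p-values were adjusted by Benjamini-Hochberg over all genes. The comparison of title ranges was a separate limma fit on the V544ins and E10 del.v2 arrays alone, with genotype as a covariate. Its interaction with genotype was fitted on the same arrays. A filter at the table median would have left 2 Hox genes. The fit of the 8 groups was checked on simulated data. Members above the table median in at least 3 arrays, or called, were named with values; Hoxa3 and Hoxa4, each above the median in 1 array, are described too, chosen after their values were seen. The members and lists were chosen with earlier results of these data known. Alternatives were filters, probe set averaging, normalization, a title-range block, a host-tissue covariate, and arrays left out. RefSeq GRCm38.p6 gave the promoters. For arrays, their number limits precision. Replicates may share a source.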

Additional observations from a re-analysis of the deposited data

Results flagged for a closer look

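In 48 series (8 probe sets of 7 genes in 6 genotypes with at least 4 arrays), 5 had an array that stood far from the others of its group. Chance flags about 1 in 20 groups. These probe sets were chosen with their values known, some for a high array, so the count cannot be set against that rate. Some flags also fall on the same array, and their weight is not assessed. In Pdgfra C450 ins, replicate 4 was far above the other 4 arrays in Hoxa5 (7.78, others 3.28 to 3.71), in Hoxa4 (5.80, others 2.69 to 2.93) and in the second probe set of Hoxa3 (6.57, others 2.85 to 3.43), all in the same array. In Pdgfra E10 del.v2, replicate 9 had a Hoxa2 signal of 6.34, with the other arrays between 2.88 and 3.92. In EGFRvIII, replicate 3 had a Hoxa3 signal of 5.16 on the probe set of highest mean, with the other arrays between 4.12 and 4.54.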

How the results depend on the processing

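No paired analysis was possible because the labels give no replicate numbers. The count of Hox genes called for the mutants against EGFRvIII, 2 in the reported fit, was 0 with a filter of 3 or 9 arrays (which leaves 2 and 1 Hox genes to test), with the neuron and myelin lists as a covariate, without EGFRvIII replicates 4, 5 and 6, and in titles 41 to 64 alone, and 1 with the title range as a block and without the 4 arrays of E10 del and E10 del.v2 that stand apart. Leaving out 1 array gave 0 to 4, with 0 without EGFRvIII replicate 4 or 5 and 4 without EGFRvIII replicate 1. Hoxa9 lost its call in 2 of 44 such fits and Hoxc13 in 30. The count for Pdgfra E7 del, 1, was 0 with both filters, with each array centred on its median, with the title block and in titles 41 to 64 alone, and 2 with the mean of all probe sets and with a second quantile normalization; leaving out 1 array gave 0 to 1. The other 7 comparisons had 0 Hox genes called in every alternative run. Arrays with at least 1 Hox gene above the median numbered 13, and 8 with a threshold 1 log2 unit higher. Hoxa2 for the mutants against EGFRvIII turned sign, to 0.38 with the title block and 0.53 in titles 41 to 64 alone, and ranged from -0.44 to 0.11 over arrays left out (0.11 without EGFRvIII replicate 3 and 0.07 without replicate 7). Hoxa5 ranged from -0.39 to 0.11 (0.11 and 0.09 without EGFRvIII replicates 2 and 3). Otx1 was 0.050 without EGFRvIII replicates 4, 5 and 6. Aldh1a3 in Pdgfra D842V lost its call without replicate 2, 3 or 5. The cause of these changes was not tested. No comparison has all its groups within 1 title range, so the planned fits there were not run, and fits with the groups present there, chosen after seeing the data, stand in for them. The title range cannot be separated from most genotypes, and single high arrays set the spread of Hoxa2 and Hoxa5.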
